A study of Mus musculus with 15 samples.

Results

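Fbxo32, Sec14l5 and Sspo are 3 of the 55401 genes counted in 15 hippocampal samples of aged mice, and they were chosen by their DHA differences, since they were the genes called lower upon DHA treatment in both WT and Tg2576 mice. Docosahexaenoic acid (DHA) is the main omega-3 fatty acid of brain membranes. Female mice aged 18 to 20 months received DHA at 450 mg/kg in sesame oil, or the same oil alone as vehicle, by daily intragastric dosing for 5 weeks. Tg2576 mice (genotype label Tg2576 +/+) carry a human APP transgene with the Swedish familial Alzheimer's disease mutation driven by the prion promoter, and WT mice (Tg2576 -/-) were their littermates without it. The samples sequenced were 4 with vehicle in each genotype and, with DHA, 4 of WT and 3 of Tg2576 mice. Each sample is called a mouse here, although the labels do not state that it came from a single animal. The transgene is expressed from a promoter that is not its own, and all groups shared sex, age and the oil vehicle.

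The 3 genes have different known roles. Fbxo32 encodes the F-box protein atrogin (MAFbx), the substrate-binding subunit of an SCF ubiquitin ligase (Skp1, Cul1, Rbx1 and an F-box protein) that is best known in wasting muscle, where FoxO factors and glucocorticoids raise it. Sec14l5 encodes a member of the SEC14-like proteins, which hold a CRAL-TRIO domain, a pocket that binds lipids in the yeast protein Sec14 and its relatives. Sspo encodes SCO-spondin, a giant secreted glycoprotein with many thrombospondin type 1 repeats, made by the subcommissural organ at the roof of the third ventricle and released into the cerebrospinal fluid, where it forms the Reissner fibre. The subcommissural organ lies outside the hippocampus.

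In the annotation of the files (mouse genome GRCm38), Fbxo32 (ENSMUSG00000022358.7) lies on the minus strand of chromosome 15 from 58175879 to 58214932, with 6976 exonic bases in 9 exon blocks. Sec14l5 (ENSMUSG00000091712.2) lies on the plus strand of chromosome 16 from 5147109 to 5187271, with 5740 exonic bases in 16 blocks. Sspo (ENSMUSG00000029797.13) lies on the plus strand of chromosome 6 from 48448229 to 48501250, with 15863 exonic bases in 103 blocks. The reads were counted over exons without a strand setting. Fbxo32 shares 186 exonic bases with the antisense gene Gm15943, which had at most 6 reads in any mouse, and the exons of Sec14l5 and Sspo overlap no other gene.

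Sec14l5 and Sspo had an entry among the RefSeq promoter sequences (GRCm38.p6), and their 250 bases before the transcription start are shown because both genes were lower with DHA. The Sec14l5 window is chr16:5146859-5147108 and the Sspo window is chr6:48447924-48448173, both on the plus strand. Capitals mark the motifs found on either strand, namely the CCAAT box (CCAAT), the GC box (GGGCGG) and the E-box CAGCTG.
Sec14l5: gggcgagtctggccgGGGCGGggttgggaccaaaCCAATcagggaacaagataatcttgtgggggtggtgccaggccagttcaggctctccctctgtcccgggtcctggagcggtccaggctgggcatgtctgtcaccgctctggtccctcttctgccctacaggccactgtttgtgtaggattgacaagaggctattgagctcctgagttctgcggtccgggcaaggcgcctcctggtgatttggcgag
Sspo: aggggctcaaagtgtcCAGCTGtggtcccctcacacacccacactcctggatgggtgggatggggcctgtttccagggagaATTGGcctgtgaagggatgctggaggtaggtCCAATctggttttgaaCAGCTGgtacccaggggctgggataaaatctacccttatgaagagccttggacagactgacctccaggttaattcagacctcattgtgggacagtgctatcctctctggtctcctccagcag
The Sec14l5 window held 1 GC box and 1 CCAAT box, starting 235 and 216 bases before the start, and its GC content was 61.6%. The Sspo window held 2 copies of CAGCTG, 234 and 122 bases before the start, and 2 CCAAT boxes (1 of them on the minus strand), at a GC content of 54.8%. Over all 32851 RefSeq promoters of this length the median GC content was 52.4%, 33.8% held a CCAAT box, 32.7% a GC box and 13.001% the E-box. The other 5 motifs searched, on both strands, had no match in either window. These were TATAAA (in 12.4% of all promoters), the FoxO site GTAAACA (3.17%), the NBRE AAAGGTCA (1.34%), the direct repeat DR1 (0.0335%) and the palindromic glucocorticoid response element (0.00913%). The letters of the NBRE are part of DR1 where the free base of DR1 is A, and no other pair of these motifs contains one another.

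The libraries held 17372864 to 46596489 counted reads (median 25645977), and levels are given as CPM, counts relative to the library size after TMM scaling. App, which the transgene raises, was higher in every Tg2576 mouse (lowest 2076 CPM) than in any WT mouse (highest 1787 CPM). The hippocampal neuron genes summed to 1096 to 1597 CPM per mouse. The choroid plexus gene Ttr ranged from 33.5 to 5603 CPM, so the amount of choroid plexus RNA differed widely between mice of every group except the Tg2576 DHA group. No mouse stood apart from the rest over all genes, with a median correlation to the other mice of 0.972 to 0.983 on the log2 CPM scale.

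Of the 3 genes, Sec14l5 was the most abundant and Sspo the least. Per kilobase of exon, the mean over the 15 mice was 8.92 CPM for Sec14l5, above 73.0% of the 19536 genes tested. Fbxo32 stood at 3.40 CPM per kilobase, near the middle of the tested genes, with 52.0% of them below it. Sspo stood at 0.316 CPM per kilobase, above 12.9% of tested genes, although its long transcript still gave 68 to 364 reads per mouse. The corresponding read numbers were 409 to 1489 for Fbxo32 and 854 to 2695 for Sec14l5.

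The DHA differences are described without a test, because they chose the genes. Fbxo32 measured 32.1, 28.5, 27.7 and 29.5 CPM in the WT vehicle mice, and 19.1, 21.6, 21.2 and 22.3 CPM in the WT DHA mice. In Tg2576 mice it measured 26.1, 23.6, 24.9 and 22.0 CPM with vehicle and 20.5, 17.1 and 19.4 CPM with DHA. All DHA mice lay below all vehicle mice of their genotype, with a gap of 5.44 CPM in WT mice and 1.44 CPM in Tg2576 mice. The group means (± SD) were 29.4 ± 1.90 CPM (WT vehicle, n = 4), 21.0 ± 1.38 (WT DHA, n = 4), 24.1 ± 1.79 (Tg2576 vehicle, n = 4) and 19.0 ± 1.75 (Tg2576 DHA, n = 3). Hence the Fbxo32 mean was 28.6% lower upon DHA treatment in WT mice (log2 fold change -0.49, SE 0.0940) and 21.3% lower in Tg2576 mice (log2 fold change -0.35, SE 0.102). The vehicle means lay above the DHA means, and within each treatment the WT mean lay above the Tg2576 mean. The vehicle groups did not overlap each other, whereas the Tg2576 vehicle mice overlapped the WT DHA mice, and these the Tg2576 DHA mice. The share of tested genes with vehicle groups apart in this way was not counted.

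Sec14l5 measured 58.0, 56.8, 52.3 and 53.8 CPM in WT vehicle mice and 37.6, 45.9, 49.97 and 47.2 CPM in WT DHA mice. In Tg2576 mice the levels were 69.8, 53.9, 56.9 and 56.1 CPM with vehicle and 43.6, 40.5 and 45.5 CPM with DHA. Again no DHA mouse reached the lowest vehicle mouse of its genotype, with gaps of 2.37 CPM (WT) and 8.48 CPM (Tg2576). The means were 55.3 ± 2.63 (vehicle) and 45.2 ± 5.33 CPM (DHA) in WT mice (SD, n = 4 each), and 59.2 ± 7.19 (vehicle, n = 4) and 43.2 ± 2.49 CPM (DHA, n = 3) in Tg2576 mice. Relative to vehicle, Sec14l5 was 18.3% lower in WT mice (log2 fold change -0.29, SE 0.0993) and 27.1% lower in Tg2576 mice (-0.45, SE 0.108). A single mouse stood away from its group at each end, the first Tg2576 vehicle mouse at 69.8 CPM and the first WT DHA mouse at 37.6 CPM. The vehicle groups of both genotypes overlapped, and so did both DHA groups.

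Sspo measured 7.84, 6.04, 5.20 and 4.84 CPM in WT vehicle mice and 4.18, 2.95, 3.88 and 3.26 CPM in WT DHA mice. The Tg2576 mice had 7.10, 6.37, 7.43 and 4.63 CPM with vehicle and 4.32, 3.75 and 3.45 CPM with DHA. The groups did not overlap within a genotype, but the gaps were narrow, at 0.662 CPM in WT mice and 0.315 CPM in Tg2576 mice. The means were 5.98 ± 1.34 CPM (WT vehicle, n = 4), 3.57 ± 0.561 (WT DHA, n = 4), 6.38 ± 1.25 (Tg2576 vehicle, n = 4) and 3.84 ± 0.443 (Tg2576 DHA, n = 3). Sspo was 40.3% lower upon DHA treatment in WT mice (log2 fold change -0.75, SE 0.199) and 39.8% lower in Tg2576 mice (-0.73, SE 0.216). This was the largest relative difference of the 3 genes in either genotype, and also the one with the largest SE. In a bulk tissue sample, fewer cells of a type and less RNA per cell cannot be told apart.

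**Figure D1:**
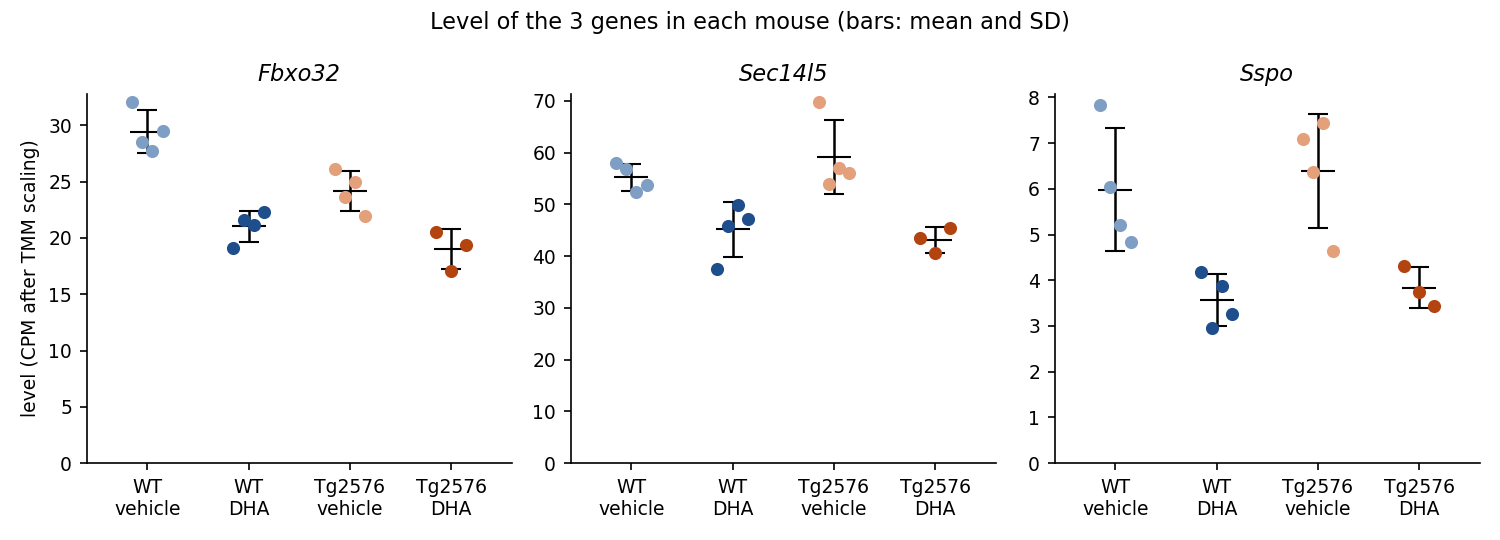
Level of Fbxo32, Sec14l5 and Sspo in CPM after TMM scaling (vertical axis, from 0) in each of the 15 mice (points), with the mean and SD of the group (bars). In each panel the DHA mice of a genotype lie below all vehicle mice of that genotype, with the narrowest gap for Sspo in Tg2576 mice (0.315 CPM).

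Many tested genes had larger falls on the log2 scale. The log2 fold change of Sspo was undercut by 520 of the 19536 tested genes in WT mice and by 516 in Tg2576 mice. For Fbxo32 these counts were 1192 and 1828, and for Sec14l5 2546 and 1220. Over all tested genes the median log2 fold change was -0.0135 (WT) and -0.00389 (Tg2576). At an unadjusted p under 0.01 in the quasi-likelihood test of edgeR, 117 genes (0.599%) were lower and 153 (0.783%) higher upon DHA treatment in WT mice, 38 (0.195%) were lower and 31 (0.159%) higher in Tg2576 mice, and these 3 were the genes lower in both (0.0154% of those tested). Groups without overlap and with lower DHA mice were found for 436 genes (2.23%) in WT mice, 296 (1.52%) in Tg2576 mice and 9 (0.0461%) in both. Nothing is read from these counts for the 3 genes, since the same contrasts chose them. At an adjusted p under 0.05, edgeR and limma-voom called 0 genes in either genotype, and DESeq2 called 32 in WT and 0 in Tg2576 mice. An unadjusted p under 0.05 in edgeR was reached by 1157 genes in WT and 618 in Tg2576 mice.

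The larger of a gene's unadjusted edgeR p values in the 2 genotypes placed it against the threshold, and it is given only to describe the choice. Sec14l5 was closest from inside, at 0.00910, and it left the genes lower in both genotypes with the replicate block and in 11 of the 15 fits without 1 mouse. The next gene outside was Plekha2, a phosphoinositide-binding adaptor, at 0.0197, with log2 fold changes of -0.41 (SE 0.101) in WT and -0.28 (SE 0.1102) in Tg2576 mice.

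The DHA difference in Tg2576 mice minus that in WT mice was 0.14 (SE 0.138) for Fbxo32, -0.16 (SE 0.146) for Sec14l5 and 0.0189 (SE 0.290) for Sspo on the log2 scale. Fbxo32 therefore had the larger difference in WT mice and Sec14l5 in Tg2576 mice, each by about 1 SE. These values are not tested, because a fall in both genotypes was asked of each gene.

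Genotype was not used to choose the genes, so it was tested. The choice may still favour genes with a low spread within groups, which would lower these p values too. Over both treatments the mean level of Fbxo32 was 25.2 CPM in WT and 21.6 CPM in Tg2576 mice, a log2 difference of -0.22 (SE 0.0694, Tg2576 minus WT). The edgeR quasi-likelihood test gave an unadjusted p of 0.00600, a threshold passed in the lower direction by 374 genes (1.91%), in the higher direction by 379 (1.94%) and in all by 753 (3.85%), and an adjusted p of 0.225 over all tested genes. An exact two-sided permutation test, with mice relabelled within treatment, gave p = 0.00327, where 0.000408 is the smallest of its 2450 relabellings. All 4 Tg2576 vehicle mice lay below all WT vehicle mice (log2 difference -0.29, SE 0.0936), whereas 1 of 3 Tg2576 DHA mice lay below all WT DHA mice (-0.15, SE 0.102). How many tested genes have such an order between genotypes was not counted, so nothing is read from it. Fbxo32 did not pass the multiple-test adjustment, and its unadjusted p exceeded 0.01 without TMM factors (0.0203), without the filter on low counts (0.0137) and in 9 of 15 leave-one-out fits, reaching 0.0299 without the second Tg2576 DHA mouse.

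Sec14l5 and Sspo did not pass the same tests of genotype. Sec14l5 averaged 50.2 CPM in WT and 51.2 CPM in Tg2576 mice (log2 difference 0.0170, SE 0.0730, p = 0.819 and adjusted p = 0.961 by edgeR, exact permutation p = 0.816). Sspo averaged 4.78 CPM in WT and 5.11 CPM in Tg2576 mice (log2 difference 0.0987, SE 0.145, p = 0.506 and adjusted p = 0.866 by edgeR, exact permutation p = 0.425). For both genes the mice of each genotype overlapped under vehicle and under DHA.

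The closest relatives of the 3 genes were tested next. Fbxo25, the paralog of Fbxo32 that also forms an SCF ligase, had a mean of 63.8 CPM and log2 fold changes of 0.0379 (SE 0.0844) in WT and 0.0845 (SE 0.0912) in Tg2576 mice. Sec14l1, at 43.7 CPM per kilobase a more abundant SEC14-like gene than Sec14l5, had -0.00645 (SE 0.0831) in WT and -0.00905 (SE 0.0898) in Tg2576 mice, and both values were smaller than their SE. Spon1 (F-spondin), which shares thrombospondin repeats with SCO-spondin, had -0.19 (SE 0.120) in WT and 0.0892 (SE 0.130) in Tg2576 mice. None of these 3 genes passed a p of 0.01 or 0.05 in either genotype.

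Sec14l3, another SEC14-like gene, rose in WT mice. It measured 1.85, 1.11, 2.23 and 0.692 CPM in WT vehicle mice and 5.19, 4.22, 4.14 and 3.502 CPM in WT DHA mice, and these groups did not overlap. Sec14l3 was named for its low p in this contrast, so the separation adds nothing. How many tested genes separate in that direction was not counted. The log2 fold change was 1.52 (SE 0.421, adjusted p = 0.540, edgeR). In Tg2576 mice the levels were 1.59, 3.07, 1.68 and 0.488 CPM with vehicle and 4.53, 4.34 and 2.25 CPM with DHA, which overlapped, with a log2 fold change of 1.11 (SE 0.445, adjusted p = 0.999), past 0.05 but not past 0.01 before adjustment. The WT value kept a p under 0.01 in each of the 6 fits with other settings and the 15 fits without 1 mouse, and the Tg2576 value stayed above it except in 1 of these. Sec14l3 is a low-level gene (12 to 147 reads, 0.979 CPM per kilobase), and its neighbours on chromosome 11, Sec14l2 and Sec14l4, had means of 80.5 and 1.02 CPM. Sec14l2 differed by 0.0601 (SE 0.0819) in WT and -0.0851 (SE 0.0887) in Tg2576 mice.

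**Figure D2:**
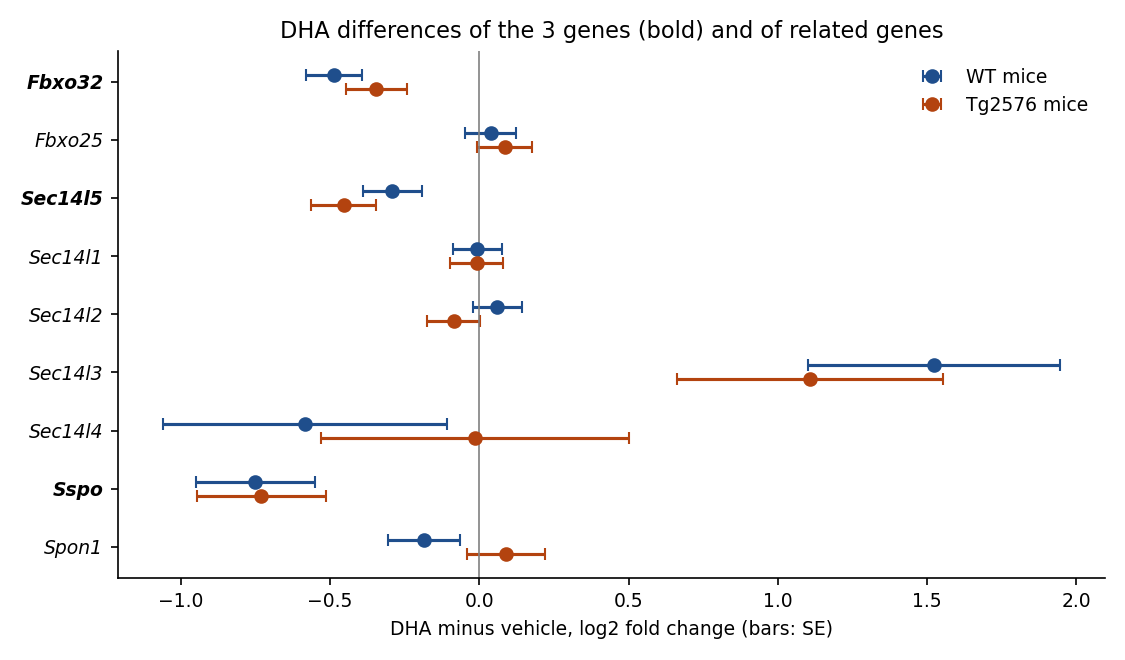
DHA minus vehicle difference on the log2 scale (horizontal axis, bars are SE) of Fbxo32, Sec14l5 and Sspo (bold) and of related genes, in WT (blue) and Tg2576 mice (orange). The 3 bold genes lie below 0 in both genotypes, Fbxo25 and Sec14l1 lie within about 1 SE of 0, and Sec14l3 lies at 1.52 in WT and 1.11 in Tg2576 mice.

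**Figure D3:**
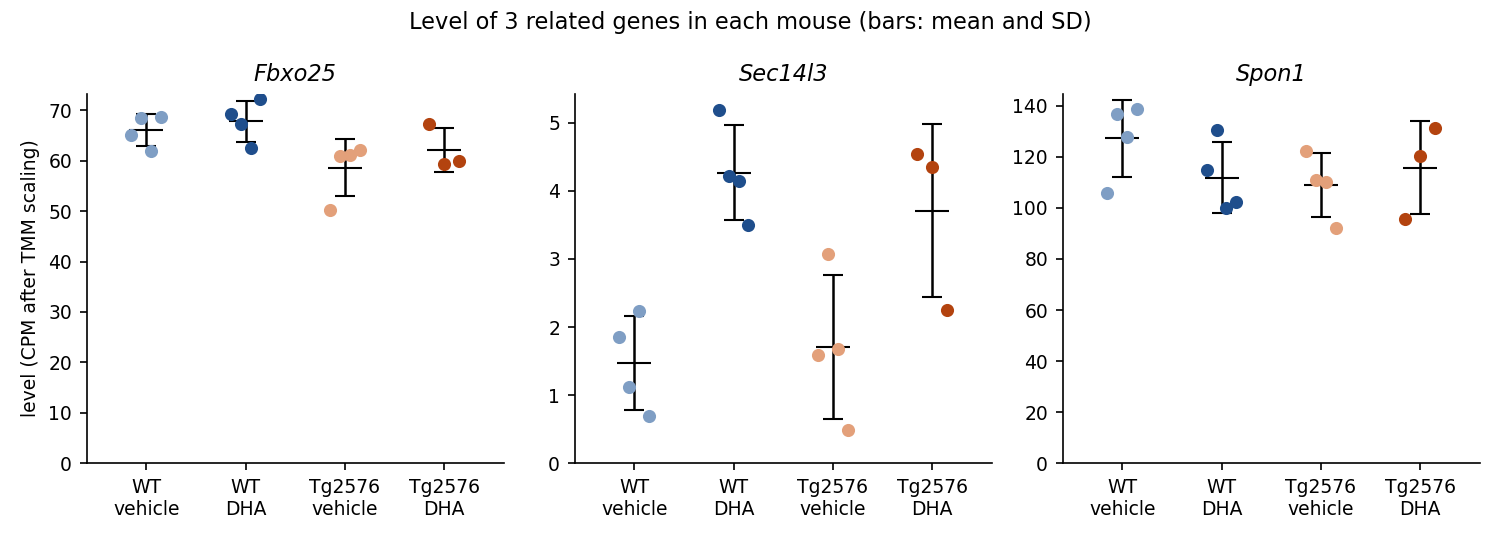
Level of Fbxo25, Sec14l3 and Spon1 in CPM after TMM scaling (vertical axis, from 0) in each mouse (points), with group mean and SD (bars). The WT DHA mice lie above all WT vehicle mice for Sec14l3, and the groups overlap for Spon1.

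The other genes of the ubiquitin ligase pathway of Fbxo32 came next. Of 31 tested F-box-only genes besides Fbxo32, 0 passed a p of 0.01 in WT mice, where 1.38% of all tested genes did, and 0 in Tg2576 mice, where 0.353% did. Their median log2 fold changes were -0.0158 and -0.00132. At an unadjusted p under 0.05, which 5.92% of all tested genes passed in WT and 3.16% in Tg2576 mice, Fbxo44 and its neighbour Fbxo2, whose protein binds glycoproteins, measured 0.23 (SE 0.0926) and 0.27 (SE 0.115) in WT mice, and Fbxo7, a Parkinson's disease gene, measured -0.21 (SE 0.0948) in Tg2576 mice. Among 12 SCF subunits, regulators and Fbxo32 substrates, 1 fell in WT mice and 0 moved in Tg2576 mice, with medians of 0.0196 and -0.0680. That gene was Cand2, an exchange factor of cullin ligases, which had a log2 fold change of -0.55 (SE 0.149, adjusted p = 0.540, edgeR) in WT mice and 0.13 (SE 0.160) in Tg2576 mice. Past 0.05 in WT mice were also Uba3, a subunit of the enzyme that activates Nedd8 (-0.22, SE 0.0955), and the calcineurin subunit gene Ppp3ca (-0.20, SE 0.0924). Cul1, Rbx1 and Skp1a, the shared core of the ligase, lay within -0.11 and 0.0525 in both genotypes.

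Fbxo32 was also set against its known inducers. Of 18 tested FoxO and atrophy genes 0 fell and 1 rose in WT mice, and 0 passed in Tg2576 mice, with medians of 0.0793 and -6.97e-05. The shares over all tested genes were 0.599% lower and 0.783% higher in WT mice, and 0.353% called in Tg2576 mice. The gene that rose was Foxo6, a FoxO factor of the hippocampus, at 0.58 (SE 0.197, adjusted p = 0.700, edgeR) in WT mice, and its p exceeded 0.01 in 6 of the 15 fits without 1 mouse, up to 0.0360. Foxo1 and Foxo3 measured -0.0929 (SE 0.130) and 0.13 (SE 0.106) in WT mice. Trim63, the other ligase of muscle atrophy, was not tested, with at most 0.244 CPM in any mouse. Of 16 glucocorticoid-induced genes 0 passed in either genotype, with a median of 0.10 in WT mice and -0.22 in Tg2576 mice, where 15 of the 16 values were below 0. The lowest p in Tg2576 mice belonged to the metallothioneins Mt1 (-0.44, SE 0.156) and Mt2 (-0.49, SE 0.177) and to the cell cycle inhibitor Cdkn1a (-1.23, SE 0.455). For Cdkn1a the Tg2576 vehicle mice ranged from 8.47 to 47.2 CPM, and the value was -0.41 without the first of them. Other list genes also spread widely in that group, such as Plin4 (5.28 to 113 CPM), Fkbp5 (52.5 to 143 CPM) and Sgk1 (49.4 to 172 CPM). Mt1 spread less (235 to 326 CPM). The 16 genes were measured in the same mice, and the count of values below 0 was not tested. The summed level of the 16 genes ran from 868 to 1721 CPM in Tg2576 vehicle mice and from 857 to 1013 CPM in Tg2576 DHA mice, and its part in the Fbxo32 difference was not tested.

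Skeletal muscle is the tissue where Fbxo32 is best known. Of 8 muscle fibre genes 4 were tested, and 0 passed a p of 0.01. Over all tested genes 1.38% did in WT and 0.353% in Tg2576 mice. Their summed level was 8.83 to 16.4 CPM over all mice, most of it Acta1 (mean 9.03 CPM), and the fibre genes Ckm, Tnnt3, Atp2a1 and Mb were each below 1 CPM in every mouse. Of 10 smooth muscle and pericyte genes 0 passed in either genotype, with medians of -0.0982 in WT and -0.16 in Tg2576 mice.

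Sec14l5 shares its lipid-binding domain with other genes. Of 22 tested CRAL-TRIO genes 0 fell and 1 rose in WT mice, the gene being Sec14l3, and 0 passed in Tg2576 mice, with medians of -0.0516 and 0.0431. Among all tested genes 0.599% fell and 0.783% rose in WT mice, and 0.353% were called in Tg2576 mice. At an unadjusted p under 0.05, Ptpn9, a phosphatase with a Sec14-like domain, measured 0.28 (SE 0.109) in Tg2576 mice, and Clvs1 (clavesin) measured -0.37 (SE 0.161) in WT mice. Among 24 tested extracellular genes with domains found in SCO-spondin, 1 fell in WT mice and 0 moved in Tg2576 mice. It was Sema5a, a semaphorin with thrombospondin repeats, at -0.49 (SE 0.156, adjusted p = 0.637, edgeR), and its p exceeded 0.01 in 5 of the 15 fits without 1 mouse, up to 0.0273. Unc5b, a netrin receptor, measured -0.31 (SE 0.143) in WT mice. Rspo2, a Wnt-enhancing R-spondin, measured 0.59 (SE 0.207) in Tg2576 mice, and 0.38 without the fourth Tg2576 vehicle mouse.

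Sspo was next set against markers of the tissue that makes it. Besides Sspo, 5 subcommissural organ genes were tested and 0 passed a p of 0.01. Over all tested genes 1.38% did in WT and 0.353% in Tg2576 mice, so 0 of 5 tells little. The list medians were -0.0554 in WT and -0.0167 in Tg2576 mice. The secretory factor Spdef reached at most 2.16 CPM in any mouse and the roof plate factor Lmx1a at most 2.23 CPM. Wnt1 reached at most 1.01 and Car3 at most 0.959 CPM. Pax6, which other brain cells also express, made up most of the summed level of the list with a mean of 9.54 CPM. The summed level was 9.91 to 16.99 CPM in WT vehicle, 9.55 to 12.5 in WT DHA, 11.2 to 14.02 in Tg2576 vehicle and 10.8 to 14.04 CPM in mice of the Tg2576 DHA group. These ranges overlapped in both genotypes, and none of the 5 genes was at 0 in all mice.

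Markers of the ventricle wall were described next. Of 9 tested ependymal genes 0 passed a p of 0.01 in either genotype. Over all tested genes 1.38% did in WT and 0.353% in Tg2576 mice, so 0 of 9 tells little. Below 0 lay 8 of 9 in WT mice (median -0.21) and 3 of 9 in Tg2576 mice (median 0.10). Their summed level was 29.5 to 81.1 CPM in WT vehicle and 26.7 to 71.4 CPM in WT DHA mice, against 33.1 to 59.9 and 39.9 to 56.4 CPM in Tg2576 mice. Of 10 choroid plexus genes 0 passed the same threshold in either genotype. All 10 lay below 0 in WT mice (median -0.20) and all 10 above 0 in Tg2576 mice (median 0.98). The genes of each list were measured in the same mice, and these counts of signs were not tested. The summed choroid plexus level was 94.5 to 3768 CPM with vehicle and 65.4 to 5910 CPM with DHA in WT mice, and 147 to 3222 against 3159 to 5211 CPM in Tg2576 mice. These ranges overlapped in both genotypes, the difference between genotypes was not tested, and neither was the part of choroid plexus RNA in the Sspo difference.

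Habenula and thalamus adjoin the dissected region. Of 14 genes marking them, 0 fell and 1 rose in WT mice, and 1 fell and 0 rose in Tg2576 mice, with medians of -0.0146 and -0.0957. Over all tested genes 0.783% rose in WT mice and 0.195% fell in Tg2576 mice. Tac2, a neurokinin precursor of the habenula, rose in WT mice (0.82, SE 0.249, adjusted p = 0.600, edgeR), and its p exceeded 0.01 in 5 of the 15 fits without 1 mouse, up to 0.0167. Prkcd, a protein kinase C gene strong in thalamus, fell in Tg2576 mice (-0.69, SE 0.151, adjusted p = 0.999, edgeR) and kept its p under 0.01 in every fit run. Its level was 42.6 to 56.0 CPM in Tg2576 vehicle and 28.7 to 30.6 CPM in Tg2576 DHA mice. Such an order without overlap was found for 1.52% of all tested genes in those mice. In WT mice Prkcd measured -0.14 (SE 0.137) and its groups overlapped. The part of Prkcd in the differences of the 3 genes was not tested. The summed level of the 14 genes was 127 to 138 CPM in Tg2576 vehicle and 115 to 118 CPM in Tg2576 DHA mice, and 122 to 139 against 121 to 133 CPM in WT mice. Synpo2, also of this list, measured -0.48 (SE 0.172) in WT mice.

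Oligodendrocyte genes lay below 0 with DHA in WT mice, and most of them did in Tg2576 mice. Of 15 such genes 0 passed a p of 0.01 in WT mice, where 1.38% of all tested genes did. All 15 were below 0 (median -0.22), against a median of -0.0135 over all tested genes. These genes mark 1 cell type in the same mice, and the count of values below 0 was not tested. In Tg2576 mice 11 of 15 were below 0 (median -0.0662), and 1 fell, as did 0.195% of all tested genes. The gene was Mobp, a myelin protein gene, at -0.46 (SE 0.132, adjusted p = 0.999, edgeR), and its p reached 0.0323 in the 1 fit of 15 that lost the call. Mbp, the gene of myelin basic protein, measured -0.33 (SE 0.144) in the same mice. The summed level overlapped between treatments in both genotypes, at 8189 to 8836 CPM (vehicle) and 6254 to 9060 CPM (DHA) in WT mice, and 6339 to 9185 and 6048 to 7960 CPM in Tg2576 mice. Deviations from the group mean in Sec14l5 and in the mean of this list had r = -0.0469 over 15 mice (exact permutation p = 0.902). Without the first WT DHA and the first Tg2576 vehicle mouse, the farthest from the median of the list, r was 0.237. The part of oligodendrocyte RNA in the Sec14l5 difference was not tested.

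Other cell types were described in the same way. Of 10 astrocyte genes 0 passed in either genotype (medians -0.0266 and 0.0234), with -0.37 (SE 0.138) for the bicarbonate cotransporter Slc4a4 and 0.25 (SE 0.109) for the connexin gene Gjb6 in WT mice. The 9 microglia genes described here had medians of -0.0945 in WT and 0.0529 in Tg2576 mice. Among 11 hippocampal neuron genes, 1 fell and 2 rose in WT mice and 0 moved in Tg2576 mice (medians -0.23 and -0.00189), where over all tested genes 0.599% fell and 0.783% rose in WT mice and 0.353% were called in Tg2576 mice. Prox1, the dentate granule cell factor, fell by 0.37 on the log2 scale (SE 0.121, adjusted p = 0.669, edgeR), and its p exceeded 0.01 in 7 of the 15 fits without 1 mouse, up to 0.0429. The CA1 gene Wfs1 (0.31, SE 0.0872) and Mpped1 (0.26, SE 0.0745) rose, and their p exceeded 0.01 in 1 and 2 of those fits. In the lists of subcommissural organ, ependyma, choroid plexus, skeletal muscle and smooth muscle, 0 genes passed an unadjusted p of 0.05 in either genotype. Over all tested genes 5.92% did in WT and 3.16% in Tg2576 mice. Every gene of the 16 lists that the files hold had reads in at least 1 mouse.

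**Figure D4:**
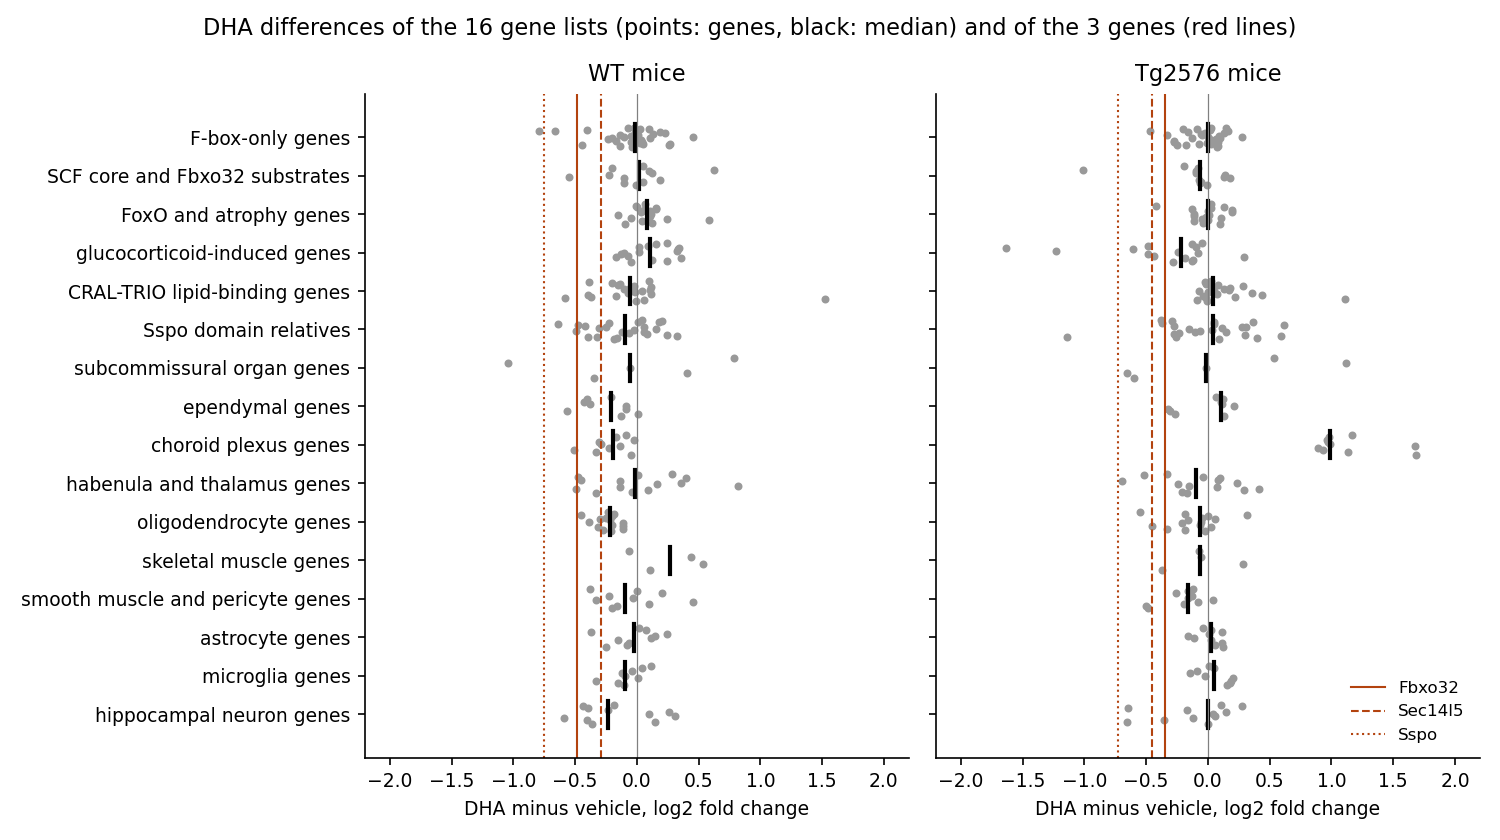
DHA minus vehicle difference on the log2 scale (horizontal axis) of the tested genes of the 16 lists (grey points) with the list median (black bar), in WT (left) and Tg2576 mice (right). The red lines give Fbxo32, Sec14l5 and Sspo, which were chosen by these differences, so nothing is read from their place left of the list medians. Single list genes lie further left, such as Lmx1a in WT mice (-1.04) and Cdkn1a in Tg2576 mice (-1.23). The choroid plexus median stands at 0.98 in Tg2576 mice.

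The 3 genes were also compared mouse by mouse within groups. Deviations of log2 CPM from the group mean gave Pearson r = 0.716 and Spearman rho = 0.707 between Fbxo32 and Sec14l5 over 15 mice. The exact permutation p, with mice exchanged within groups (82944 arrangements), was 0.00649 for r and 0.0103 for rho, and the p adjusted over the 33 relations computed was 0.214 and 0.339. Without the 2 mice farthest from the median of Fbxo32, the first WT DHA and second Tg2576 DHA mouse, r was 0.599 for Sec14l5 and 0.663 for Sspo, so the order of these relations rests on those mice. Over all 15 mice, r was 0.390 for Fbxo32 and Sspo (rho 0.414, exact permutation p = 0.188 and 0.167), and 0.127 for Sec14l5 and Sspo (rho 0.161, p = 0.685 and 0.602), and the differences between these correlations were not tested. The relations of the 3 genes to 10 cell type lists all had an adjusted p of at least 0.912 for r, and the highest r was 0.581 between Sec14l5 and the subcommissural organ genes (exact permutation p = 0.0718).

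**Figure D5:**
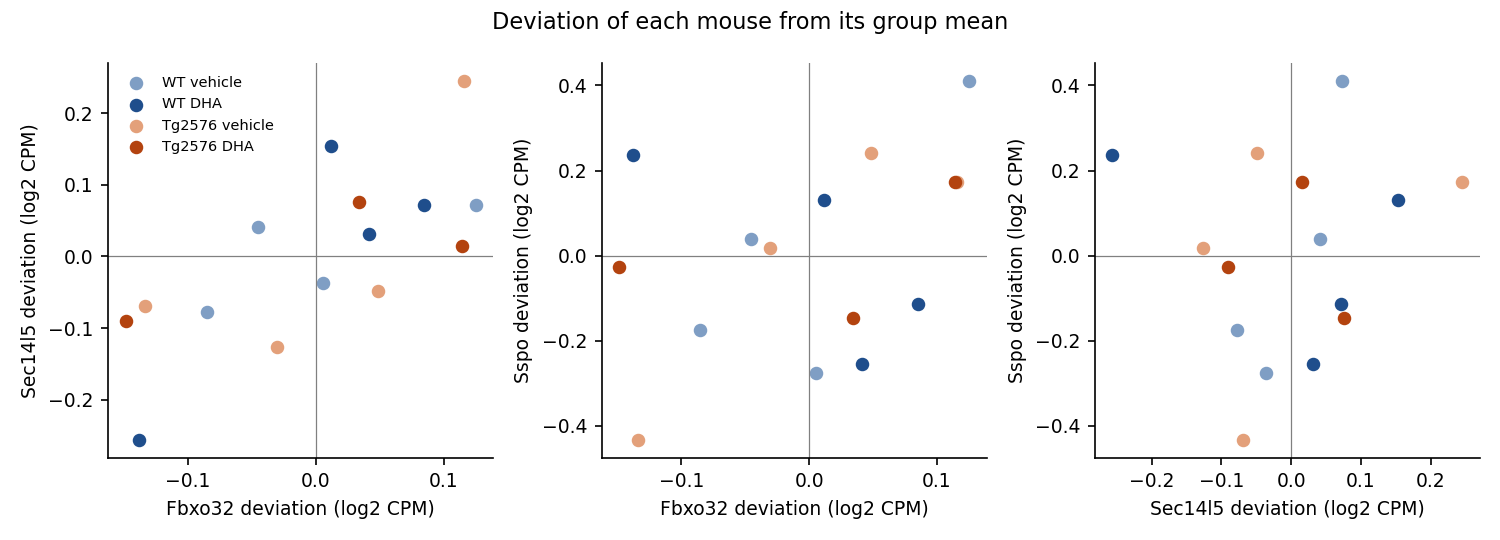
Deviation of log2 CPM from the group mean in each of the 15 mice, for Fbxo32 against Sec14l5 (left), Fbxo32 against Sspo (middle) and Sec14l5 against Sspo (right), with colours for the groups. The left panel shows the r of 0.716, and the first WT DHA mouse is lowest for Sec14l5 but above its group mean for Sspo.

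Among 15477 tested genes with a mean of at least 1 CPM, those most like each gene within groups were listed by Pearson r over 15 mice, as a description. For Sec14l5 the first was Anln (r = 0.839, mean 49.1 CPM), which encodes anillin, an actin- and septin-binding protein also found in myelin. The others were Gm44829, Klhl36, Wbp1l and Plin5, a lipid droplet protein gene, with r from 0.824 down to 0.792. For Fbxo32 the list was Gm8430, St14, Gm44829, Slc4a1ap and AC127331.2, with r from 0.831 down to 0.764, and for Sspo it was Zfp866, Wdr19, 6330549D23Rik, Itgal and Gm17022, with r from 0.883 down to 0.781. Wdr19, a component of cilia, had r = 0.866 with Sspo and log2 fold changes of -0.24 (SE 0.0833) in WT and 0.0298 (SE 0.0900) in Tg2576 mice. Gm44829, at 1.09 CPM, was the one gene on more than 1 of these lists.

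The genes next to the 3 loci were described as well. The 2 nearest genes on each side and Gm15943 made 13 genes, of which 7 were tested. Of these, 0 passed a p of 0.01 in either genotype. Over all tested genes 1.38% did in WT and 0.353% in Tg2576 mice, so 0 of 7 tells little. The lowest edgeR p was 0.0671 for Zfp467 beside Sspo (0.20 in WT mice). Beside Sec14l5, Nagpa measured 0.0691 in WT and -0.19 in Tg2576 mice, and Ubn1, Ppl and AU021092 had p values of at least 0.376. Beside Fbxo32 only Wdyhv1 was tested, and it measured -0.0338 in WT and -0.0329 in Tg2576 mice.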

How the data were processed

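Hippocampal RNA of 15 samples from female mice was sequenced, with 1 file per sample. The deposited values are raw counts per gene, which the authors made with featureCounts 1.6.0 over the exons of GENCODE vM25 (GRCm38) without a strand setting, after alignment with STAR 2.6.1c per the submitters' processing notes. Reads matching several genes are left out by default. The labels number the samples of a group but do not state that each is a single animal, so p-values measure the spread between these samples. Gene symbols came from a table of GENCODE M21 and matched 55141 of 55401 genes.

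In R 4.3.3, edgeR 4.0.16 (filterByExpr with a minimum count of 10, TMM factors from 0.961 to 1.03, robust quasi-likelihood F test, 1 coefficient per group) tested 19536 genes at a biological coefficient of variation of 20.1%. Standard errors were taken from F, as log2 fold change over its square root. The call was an unadjusted p under 0.01, as in the study, and Benjamini-Hochberg adjusted p values ran over all tested genes. Log2 CPM used a prior count of 2. The 3 genes, the 16 lists and the comparisons were chosen with earlier results of these data known, and the DHA contrasts of the 3 genes are given without a test, with 1 p of Sec14l5 printed only to place it against the threshold. Named genes are the 3 genes, Fbxo25, Sec14l1 and Spon1, up to 3 genes of each list by lowest p under 0.05 in either DHA contrast, the 5 genes most like each of the 3 and their 2 nearest genes on each side. Plekha2, Sec14l2, Sec14l4, Cul1, Rbx1, Skp1a, Foxo1, Foxo3, Trim63 and the list genes given by level alone were named after their values were seen. The lists and the naming rule also hold an item not reported here, left out of list counts and medians whatever its values.

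Alternatives were DESeq2 1.42.0, limma-voom (limma 3.58.1), no TMM factors, no filter, the 2 groups alone, the replicate number as a block, a prior count of 0.5 and each sample left out. On simulated counts of 19197 genes in which about 200 changed by 1 on the log2 scale, 77.0% (DHA in WT), 71.5% (DHA in Tg2576) and 85.9% (genotype) of these had a p under 0.01, against 0.900%, 0.848% and 0.990% of the others. Replicates of a group differed beyond sampling noise. Figures and permutation tests used Python 3.11.15 with scipy 1.17.1 and matplotlib 3.10.9.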

Additional observations from a re-analysis of the deposited data

Results flagged for a closer look

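In the Tg2576 vehicle group, 1 mouse stood far below the other 3 for Fbxo25, the paralog of Fbxo32, at 50.2 CPM against 61.0 CPM in the nearest mouse. In the WT vehicle group, 1 mouse stood far above the others for Sec14l2, at 87.5 CPM against 81.0 CPM. Of the 27 sets of 4 mice examined for such a mouse (Fbxo32, Sec14l5, Sspo and 6 related genes), chance flags about 1 in 20, and no set of Fbxo32, Sec14l5 or Sspo was among these.

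Of 29 named genes, 1 had an unadjusted p under 0.01 in the interaction term of edgeR. Most of these genes were named for a low p in 1 of the same DHA contrasts, which favours a low interaction p. The share over all tested genes was not counted, so no difference between genotypes is read from this. For Cand2, an exchange factor of cullin ligases, the effect in Tg2576 minus WT mice was 0.68 (SE 0.218, adjusted p = 0.845) on the log2 scale, with means of 8.44 and 5.80 CPM in WT vehicle and DHA mice and 6.81 and 7.46 CPM in Tg2576 vehicle and DHA mice. Cand2 fell in WT mice, as Fbxo32 did, and did not pass in Tg2576 mice.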

How the results depend on the processing

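The fall of Fbxo32, Sec14l5 and Sspo upon DHA treatment kept its direction in all 21 alternatives of each genotype and moved by less than the spread between mice. Without 1 mouse the log2 fold changes ran from -0.52 to -0.44 (Fbxo32), -0.34 to -0.21 (Sec14l5) and -0.84 to -0.59 (Sspo) in WT mice, and from -0.40 to -0.27, -0.50 to -0.37 and -0.86 to -0.65 in Tg2576 mice. The genotype difference of Fbxo32 fell below the threshold without TMM factors (-0.18, unadjusted p of 0.0203 in edgeR) and without the filter on low counts (-0.22, 0.0137), and ran from -0.24 to -0.18 without 1 mouse (unadjusted p of 0.00366 to 0.0299), and the cause was not tested. The genotype difference of Sec14l5 changed sign without the first WT DHA mouse (-0.0125), the first Tg2576 vehicle mouse (-0.0269) or the third Tg2576 DHA mouse (-0.00302), and ran from -0.0269 to 0.0445 without 1 mouse. A prior count of 0.5 gave the same permutation calls and the same 5 most similar genes. The DHA difference of Sec14l1 changed sign with DESeq2 in WT mice (0.00106) and with limma-voom in Tg2576 mice (0.00155), and ran without 1 mouse from -0.0354 to 0.0216 (WT) and -0.0627 to 0.0811 (Tg2576), and that of Spon1 in Tg2576 mice from -0.00899 to 0.21.

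The number of genes called in WT mice (270) was 431 in a fit of the 2 groups alone and 156 to 331 without 1 mouse, lowest without WT vehicle mouse 1 (156) or 2 (164) or WT DHA mouse 4 (178). In Tg2576 mice (69) it was 126 with DESeq2, 126 without the filter, 29 in a fit of the 2 groups alone and 53 to 312 without 1 mouse, highest without Tg2576 vehicle mouse 1 (122) or 2 (250) or Tg2576 DHA mouse 1 (312). Genes called lower in both genotypes numbered 3 with DESeq2, limma-voom or no TMM factors, 2 with the other settings and 1 to 3 without 1 mouse. Sec14l5 was lost with the replicate block and in 11 of the 15 fits without 1 mouse, Fbxo32 without the filter, with the 2 groups alone and in 2 of the 15, and Sspo in 3 of the 15. Without Tg2576 vehicle mouse 3 or Tg2576 DHA mouse 3 the 1 left was Fbxo32, and without Tg2576 DHA mouse 2 the 1 left was none of the 3 genes. For genotype (753) it was 510 to 1008 without 1 mouse. The replicate numbers of the labels were not treated as pairs in the main fit. Deviations of same-numbered mice from their group means correlated at -0.173 to 0.311 in WT and -0.364 to 0.0386 in Tg2576 mice. So few correlations cannot exclude a pairing. With the block of replicate numbers, 311, 54 and 725 genes were called (DHA in WT, DHA in Tg2576, genotype), and the DHA differences of Sspo were -0.74 (WT) and -0.82 (Tg2576). Counts of 68 to 364 reads limit Sspo, and 3 Tg2576 DHA mice limit each contrast with that group.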
